A study of Homo sapiens with 18 samples.

Results

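The clustered histone genes are the protein-coding genes whose symbols place them in the HIST1, HIST2, HIST3 or HIST4 cluster, and 71 of the 58735 genes counted met that rule. HIST1 on chromosome 6 held 55 of them, HIST2 on chromosome 1 held 12, HIST3 on chromosome 1 held 3, and HIST4 on chromosome 12 held 1. By protein they were 6 genes of the linker histone H1, 17 of H2A, 18 of H2B, 15 of H3 and 15 of H4. Their mRNA was measured by RNA sequencing in A549 and H358, established lines derived from human lung adenocarcinoma and kept in culture, with more or less RAD21 than in their controls. RAD21 closes the ring of cohesin, which keeps sister chromatids paired and forms loops of chromatin. Each of 6 groups held 3 libraries: A549 with RAD21 knocked down (shRAD21), A549 with the control construct (shNC), H358 with shRAD21, H358 with shNC, A549 overexpressing RAD21 (RAD21OE) and A549 with the empty vector (EV). The labels give the shNC and EV cells as wild type. They do not say whether the cells were clones or pools, nor how many hairpin sequences were used.

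Most clustered histone genes are replication-dependent: their mRNAs accumulate in S phase, when new DNA has to be packed, and are removed when replication stops. Such an mRNA normally carries no poly(A) tail and ends in a conserved stem-loop that the stem-loop binding protein SLBP recognises. Several of these genes also give longer, polyadenylated transcripts that read past the stem-loop. The encoded core histones H2A, H2B, H3 and H4 form the nucleosome, and H1 binds the linker DNA between nucleosomes.

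The stem-loop is shown because it is what the clustered genes share at the end of the message. The histone 3′ stem-loop consensus, 16 bases long, was searched in the sense strand of the GENCODE release 29 transcripts, whose gene models equal those of the counts. It was found in 32 of the 71 clustered genes and in 0.291% of all 19951 protein-coding genes, and 39 clustered genes have no stem-loop in their gene model. The 32 members carried 6 sequences, in which the capitals mark the paired stem and the lower case the loop.
HIST1H2AC: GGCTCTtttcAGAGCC
HIST1H4H: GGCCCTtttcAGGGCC
HIST1H2BD: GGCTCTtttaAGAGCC
HIST1H4I: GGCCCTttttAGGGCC
HIST1H3E: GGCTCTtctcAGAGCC
HIST1H2AG: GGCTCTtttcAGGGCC
The form shown for HIST1H2AC was the most frequent, with 17 members that include HIST2H2BE, HIST3H2A and HIST1H3H. The form of HIST1H4H was shared by 5 H4 genes, among them HIST4H4, and the form of HIST1H2BD by 5 members, among them HIST1H2BC. In 16 of the 32 members the model ran on for at least 1000 bases after the stem-loop. HIST1H2AC had 1128 such bases and HIST1H4H had 1655, and both hold the polyadenylation signal AATAAA there. A match, or the lack of a match, is a description of the gene model and does not say which end the sequenced molecules had. Some models without a match are short, such as the 381 bases of HIST1H2BK, so a stem-loop may lie outside the model.

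The promoters of 4 members are shown as examples, picked by their results below: HIST1H2AC, HIST1H4H and HIST2H2BE, whose mRNA was lower under overexpression, and HIST1H1C, whose mRNA was not. The sequences are the 250 bases before the transcription start, from RefSeq with build GRCh38.p14. Capitals mark the octamer (ATTTGCAT), the CCAAT box (CCAAT) and the TATA box (TATAAA), each searched on both strands; none of these words contains another.
HIST1H2AC: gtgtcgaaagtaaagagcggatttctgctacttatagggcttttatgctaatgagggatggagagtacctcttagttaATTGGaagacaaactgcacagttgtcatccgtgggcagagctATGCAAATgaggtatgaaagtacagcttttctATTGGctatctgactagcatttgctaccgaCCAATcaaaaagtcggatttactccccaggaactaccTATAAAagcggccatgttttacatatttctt
HIST1H4H: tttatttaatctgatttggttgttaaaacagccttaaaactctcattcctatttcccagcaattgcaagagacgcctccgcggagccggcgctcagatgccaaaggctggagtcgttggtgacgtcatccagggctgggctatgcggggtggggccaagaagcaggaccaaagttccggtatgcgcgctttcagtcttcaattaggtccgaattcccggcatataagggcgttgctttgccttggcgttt
HIST2H2BE: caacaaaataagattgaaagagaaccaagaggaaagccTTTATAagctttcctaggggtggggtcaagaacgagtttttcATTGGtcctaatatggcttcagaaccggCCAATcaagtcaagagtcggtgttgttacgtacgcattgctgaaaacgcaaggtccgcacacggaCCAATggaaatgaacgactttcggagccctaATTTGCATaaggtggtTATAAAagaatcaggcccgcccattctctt
HIST1H1C: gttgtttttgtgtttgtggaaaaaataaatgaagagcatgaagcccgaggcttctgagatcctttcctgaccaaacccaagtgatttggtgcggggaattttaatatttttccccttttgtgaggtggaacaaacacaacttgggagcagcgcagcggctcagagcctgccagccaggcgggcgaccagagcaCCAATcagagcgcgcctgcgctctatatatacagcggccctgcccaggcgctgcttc
They lie at chr6:26123922-26124171 on the plus strand, chr6:26285535-26285784 on the minus strand, chr1:149886683-149886932 on the minus strand and chr6:26056471-26056720 on the minus strand. The motifs were counted in windows from 250 bases before to 50 after the start, which 62 members had. HIST1H2AC and HIST1H2BC are transcribed away from each other, and 255 bases of these longer windows are the same DNA. The octamer stood in 33.9% of these 62 and in 1.82% of all 27305 promoters. The CCAAT word stood in 83.9% of the 62 against 35.6% of all promoters, and the TATA word in 69.4% against 12.1%. By type, the octamer was found in 11 of 16 H2A and 10 of 14 H2B promoters and in 0 of 6 H1, 0 of 13 H3 and 0 of 13 H4 promoters. The CCAAT word was in every H1, H2A, H2B and H3 promoter searched but in 3 of 13 H4 promoters. Divergent pairs share their DNA, so these promoters are not all independent. The printed sequence of HIST1H4H holds none of these words. The part of the motifs in the results below was not tested.

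The libraries held between 15155077 and 19277568 counts in the knockdown and between 13024640 and 14276335 in the overexpression, and the labels place these in separate batches. Replicate 3 of A549 shRAD21 and replicate 3 of RAD21OE stood apart: their median absolute log2 difference from the other replicates of the group was 0.215 to 0.289, whereas no other pair exceeded 0.121. Their trend with GC content also differed, as the Spearman correlation of GC with the deviation from the mean of the libraries fitted together. It was 0.172 in A549 shRAD21 replicate 3 against -0.171 and -0.158 in replicates 1 and 2. In RAD21OE replicate 3 it was 0.625 against -0.193 and 0.055. RAD21 had 128.8, 131.7 and 101.0 CPM (counts relative to the scaled library size, the unit of every level here) in A549 shRAD21 against 256.6, 252.6 and 254.3 CPM in A549 shNC, or 47.4% of the control. In H358 it had 378.1, 426.2 and 431.8 CPM with shRAD21 against 567.9, 587.7 and 601.7 CPM with shNC, or 70.3%. With overexpression it had 1517, 1498 and 1304 CPM against 194.8, 208.1 and 193.9 CPM with EV, 7.23-fold. In each comparison the groups did not overlap, with an exact two-sided permutation p of 0.1, the smallest that 3 against 3 allows. As to the labelled cell type, the epithelial keratin KRT18 averaged 617 CPM or 554 CPM in the H358 groups and from 2571 to 4600 CPM in the A549 groups, whereas NKX2-1, a factor of lung epithelium, averaged 121 CPM in H358 shNC and 0.0642 CPM in A549 shNC. The leukocyte gene PTPRC stayed at or below a mean of 0.375 CPM in all groups, and the 12 markers of other cell types summed to 21.0 to 53.4 CPM per library.

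Counts of the clustered histone genes were low in these libraries and concentrated in a few genes. Most of these genes give mRNA that normally carries no poly(A) tail, and other RNAs without a tail were nearly absent, as given below. Whether the low counts reflect little histone mRNA in the cells or little capture of it was not tested. Of the 71 members, 6 had no count in any of the 18 libraries, and 43 had too few counts for a test in either table, with group means of at most 1.14 CPM. The 27 members tested in the knockdown and the 18 in the overexpression are those the counts allow, not a sample of the family. In every group HIST1H2BK, a gene of the core histone H2B, had the highest mean CPM, with 21.0% to 27.9% of the summed CPM of all members. In A549 the 6 highest members held 64.0% to 71.0% of the sum, and in H358 71.8% to 73.4%. HIST1H2BK has 74.1% of its 50-base stretches in common with other genes, mostly the near-identical H2BFS, so its counts are uncertain, and 17 members share at least 50% of theirs in this way.

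Levels between genes were compared as CPM per kilobase of merged exon, averaged over the 18 libraries. These are 12 A549 and 6 H358 libraries, so the order within a line can differ. The length used is that of the gene model, whether or not it holds bases past the stem-loop. HIST1H1C, a somatic linker histone gene, had 18.9 CPM per kilobase, while the next H1 genes HIST1H1E and HIST1H1B had 0.330 and 0.180. Among H2A genes HIST1H2AC had 9.18, HIST3H2A had 7.40 and HIST2H2AC had 2.47 CPM per kilobase. Among H2B genes HIST1H2BK, with a model of 381 bases, had 85.5, HIST1H2BD had 7.72 and HIST2H2BE had 5.73. In H358 shNC the order of the last 2 was reversed. There HIST2H2BE averaged 24.1 CPM over 2194 bases, 1729 of them after the stem-loop, and HIST1H2BD 5.42 CPM over 871 bases. The H3 genes were lower, with 2.21 CPM per kilobase for HIST1H3H, 1.20 for HIST1H3B and 1.11 for HIST1H3E, which had no count in H358. Among H4 genes, most of which encode the same protein, HIST1H4I had 8.64, HIST1H4H had 1.93 and HIST1H4K had 1.21 CPM per kilobase, and all the 50-base stretches of HIST1H4K also occur in HIST1H4J. RNAs that normally lack a poly(A) tail were near 0 in these libraries: 21 such genes, among them RN7SK, RMRP and RPPH1 at 0 counts throughout, summed to between 1.00 and 9.02 CPM per library. Whether this bears on which histone transcripts were captured was not tested.

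Positions follow the hg38 build that the submitters' processing notes name, and the counts cover the exons of each gene. HIST1H1C (ENSG00000187837) lies at chr6:26055787-26056428 on the minus strand and HIST1H2AC (ENSG00000180573) at chr6:26124145-26139116 on the plus strand. HIST1H4H (ENSG00000158406) lies at chr6:26277609-26285638 on the minus strand, HIST1H4I (ENSG00000276180) at chr6:27138588-27139881 on the plus strand and HIST1H2BK (ENSG00000197903) at chr6:27146418-27146798 on the minus strand. On chromosome 1, HIST2H2BE (ENSG00000184678) lies at chr1:149884459-149886652 and HIST3H2A (ENSG00000181218) at chr1:228456979-228457873, both on the minus strand.

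The 71 members summed to 87.6, 81.2 and 71.7 CPM in A549 shRAD21 against 107.7, 105.6 and 97.4 CPM in A549 shNC, or 77.5% of the control mean. They summed to 202.9, 213.2 and 205.5 CPM in H358 shRAD21 against 171.4, 158.2 and 158.6 CPM in H358 shNC, or 127%. They summed to 88.6, 90.2 and 99.4 CPM in RAD21OE against 151.1, 137.8 and 150.4 CPM in EV, or 63.3%. The groups did not overlap in any of the 3 comparisons: the sum was lower in both A549 perturbations and higher in the H358 knockdown. These are descriptions of bulk RNA, in which fewer cells in S phase and less histone mRNA per cell cannot be told apart.

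**Figure D1:**
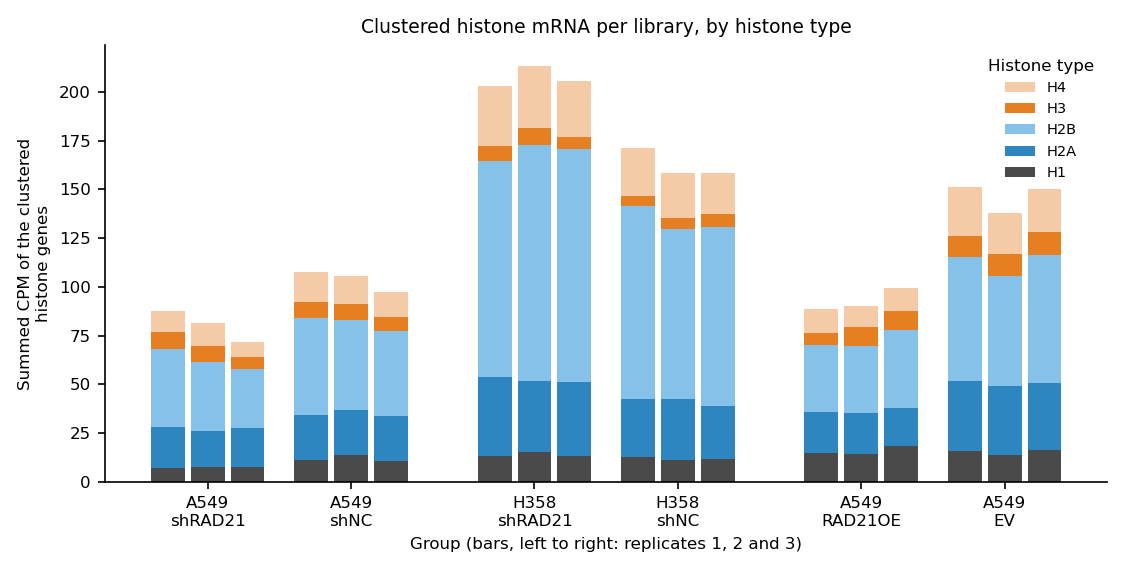
Summed CPM of the 71 clustered histone genes in each of the 18 libraries, with each bar divided by histone type and the 3 bars of a group standing for its replicates. The RAD21OE bars lie between 88.6 and 99.4 CPM and the EV bars between 137.8 and 151.1 CPM. H2B held 38.9% to 45.1% of the sum in the A549 groups, and 56.5% in H358 shRAD21 and 57.0% in H358 shNC.

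Knockdown in A549 lowered 4 clustered histone genes and raised none of the 27 tested. The genes that fell were the linker gene HIST1H1C, the H2B gene HIST1H2BK and the H4 genes HIST1H4H and HIST1H4I, to between 55.1% and 75.8% of shNC. A gene is called higher or lower here at a Benjamini-Hochberg adjusted p under 0.05 in edgeR's quasi-likelihood test over all genes tested. The 4 of 27 are 14.8%, and among all 18939 genes tested 25.2% were called, 10.9% lower and 14.4% higher, so the share of lower members is near that of all genes. The median log2 fold change of the 27 was -0.29, against 0.0045 for all genes, and it was -0.13 without A549 shRAD21 replicate 3, with 4 members lower either way. In edgeR 5 of the 27 members had an unadjusted p under 0.05, and DESeq2 and limma-voom also called 0 members higher. The filter on low counts covered both lines, so some of the 27 passed through H358 alone. Examples are HIST1H2BA, without a count in these A549 groups, and HIST2H2AA4, with 0 counts in shRAD21 and 1 in shNC. Among the 26 with any count in the A549 groups, 15.4% were lower and the median was -0.33.

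HIST1H1C had 6.54, 6.91 and 6.94 CPM in A549 shRAD21 against 10.4, 12.2 and 10.1 CPM in A549 shNC. All 3 shRAD21 libraries lay below all 3 controls, with a log2 fold change of -0.68 (SE 0.13, edgeR adjusted p = 0.000617). HIST1H2BK had 18.9, 16.8 and 16.2 CPM with shRAD21 against 26.9, 25.5 and 22.1 CPM with shNC, again with no overlap. Its log2 fold change was -0.52 (SE 0.10, edgeR adjusted p = 0.000698), and with offsets for GC content and exon length it was -0.22 with an edgeR adjusted p of 0.161. HIST1H4H had 2.44, 2.79 and 1.57 CPM with shRAD21 against 4.63, 4.08 and 3.68 CPM with shNC, without overlap, at a log2 fold change of -0.86 (SE 0.22, edgeR adjusted p = 0.00708). For HIST1H4I the levels were 6.11, 5.71 and 4.97 CPM with shRAD21 against 7.37, 7.69 and 7.15 CPM with shNC. The groups did not overlap, but the difference was small, at -0.40 (SE 0.13, edgeR adjusted p = 0.0319). That call was lost, with edgeR adjusted p between 0.0546 and 0.1, when shRAD21 replicate 2 or 3 or any shNC replicate was left out. It was also lost with limma-voom (adjusted p = 0.0555), and in edgeR without the filter on low counts (adjusted p = 0.0628) and with only the compared groups fitted (adjusted p = 0.075).

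None of the 6 tested H2A genes passed. HIST1H2AC averaged 11.5 ± 1.86 CPM in shRAD21 and 13.6 ± 0.299 CPM in shNC (SD, n = 3 each), at -0.24 (edgeR adjusted p = 0.164), and with offsets for GC content and exon length it was called lower, at -0.34 (edgeR adjusted p = 0.0153). HIST3H2A, at -0.43 (edgeR adjusted p = 0.0931), was called lower without shRAD21 replicate 3, at -0.63 (edgeR adjusted p = 0.00564). The H2B gene HIST2H2BE, at -0.38 (edgeR adjusted p = 0.167), was called lower without shRAD21 replicate 1, at -0.72 (edgeR adjusted p = 0.0054). None of the 5 tested H3 genes passed, and summed H3 mRNA averaged 7.6 CPM with shRAD21 and 7.8 CPM with shNC, 97.4% of the control. The summed H1 mRNA was at 62.4%, H2A at 86.2%, H2B at 75.6% and H4 at 70.4% of shNC. The HIST1, HIST2, HIST3 and HIST4 sums were at 76.7%, 83.5%, 78.1% and 75.0% of the control.

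Knockdown in H358 raised 4 clustered histone genes and lowered none of the same 27. They were the H2A genes HIST1H2AC and HIST1H2AG, the H2B gene HIST1H2BK and the H4 gene HIST1H4H, at 1.27-fold to 1.88-fold the level in shNC. The 4 of 27 are 14.8%, while 8.4% of all genes tested were called, 3.78% higher and 4.62% lower. HIST1H3E had no count in H358 and could not be called here. Among the 26 members with any count in the H358 groups, 15.4% were higher and the median log2 fold change was 0.39. The median log2 fold change of the 27 was 0.37, against 0 for all genes, and 9 of the 27 had an unadjusted p under 0.05 in edgeR; DESeq2 and limma-voom also called 0 lower. The count of 4 became 2 without shRAD21 replicate 2, shNC replicate 2 or shNC replicate 3, and 3 without any other single H358 library. It became 7 when the H358 libraries were fitted without A549. The count of higher genes over all genes moved in the same directions. It was 716 of 18939 with all libraries, 347 to 386 without 1 H358 library, and 2186 of 17215 when H358 was fitted without A549.

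HIST1H2AC had 15.3, 14.7 and 16.7 CPM in H358 shRAD21 against 9.86, 9.81 and 9.98 CPM in H358 shNC. Every shRAD21 library was above every control, with a log2 fold change of 0.66 (SE 0.12, edgeR adjusted p = 0.00183). HIST1H4H had 5.62, 5.77 and 5.09 CPM with shRAD21 against 3.49, 2.82 and 2.45 CPM with shNC. These groups were also apart, at 0.91 (SE 0.20, edgeR adjusted p = 0.00745). HIST1H2AG, whose H2A protein several HIST1 genes encode, had 7.86, 6.52 and 5.99 CPM with shRAD21 against 3.94, 4.26 and 4.0 CPM with shNC, at 0.74 (SE 0.19, edgeR adjusted p = 0.0198). HIST1H2BK had 55.7, 58.9 and 58.4 CPM with shRAD21 against 48.1, 41.9 and 46.3 CPM with shNC, at 0.34 (SE 0.09, edgeR adjusted p = 0.0206). Neither of these last genes overlapped between the groups. HIST1H2AG was not called without shRAD21 replicate 1 or 2 or any shNC replicate (edgeR adjusted p 0.061 to 0.109), nor HIST1H2BK without shRAD21 replicate 2 or 3 or shNC replicate 2 or 3 (0.0613 to 0.117).

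All 5 types summed higher in H358 shRAD21 than in shNC, with H1 at 118%, H2A at 131%, H2B at 126%, and H3 and H4 at 132% each. By cluster, the HIST1 sum averaged 154.9 CPM with shRAD21 and 117.7 CPM with shNC, 132%, and the HIST2 sum averaged 37.0 CPM and 29.5 CPM, 125%. HIST1H4I, at 0.32 (edgeR adjusted p = 0.0729), was called higher with limma-voom (adjusted p = 0.0386) and with only the H358 groups fitted (edgeR adjusted p = 0.0112). The HIST3 sum was at 96.4% of shNC. Its main gene, HIST3H2A, an H2A gene on the long arm of chromosome 1, averaged 11.9 ± 0.409 CPM with shRAD21 and 12.2 ± 1.69 CPM with shNC (SD, n = 3 each), at -0.04 (edgeR adjusted p = 0.906).

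**Figure D2:**
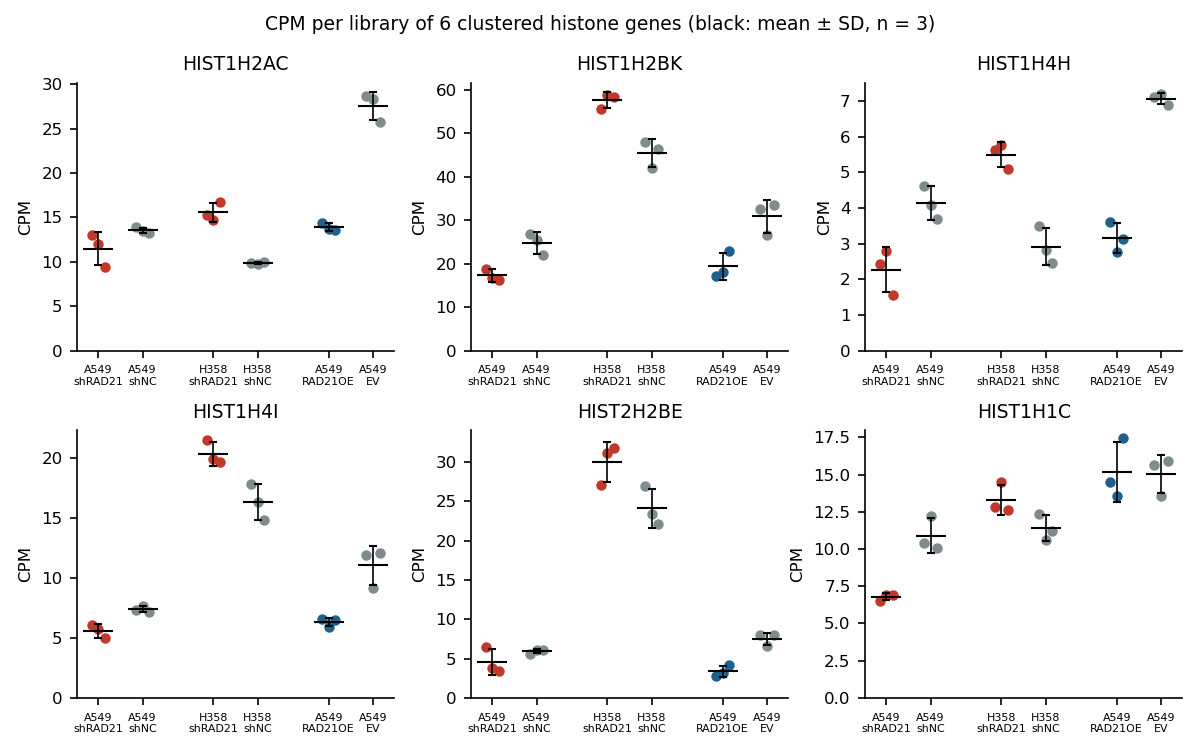
CPM per library of 6 clustered histone genes, with dots for libraries and black bars for the mean ± SD of 3, and each perturbed group left of its control. HIST1H4H and HIST1H2BK lie below the control in A549 shRAD21 and RAD21OE and above it in H358 shRAD21, while HIST1H1C overlaps its control in RAD21OE.

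The knockdowns differed between the lines for 5 of the 27 members, each with a lower log2 fold change in A549 than in H358, and for none the other way. The test is the interaction of construct and line in the same edgeR fit. It could not assess HIST1H3E, without a count in H358, or HIST1H2BA, without a count in A549. The 5 of 27 are 18.5%, while 17.6% of all genes were called, 7.61% with a lower and 9.94% with a higher fold change in A549. The difference, A549 minus H358, was -1.77 for HIST1H4H (SE 0.29, edgeR adjusted p = 0.000411) and -0.87 for HIST1H2BK (SE 0.13, edgeR adjusted p = 0.000188). It was -0.90 for both HIST1H2AC and HIST1H1C (SE 0.17 each, edgeR adjusted p = 0.00134 and 0.00139) and -0.72 for HIST1H4I (SE 0.17, edgeR adjusted p = 0.00671). HIST2H2BE was just short of the threshold at -0.69 (SE 0.24, edgeR adjusted p = 0.0511) and was called with DESeq2 (adjusted p = 0.0239) and limma-voom (adjusted p = 0.0483). HIST1H4H and HIST1H2BK were called in opposite directions by the separate comparisons. Without A549 shRAD21 replicate 3 the count was 8, and without any other single library it was 5 to 7. Leaving out that replicate also moved the count over all genes with a lower fold change in A549, to 3507 of 19584 tested, against 1442 of 18939 with it. RAD21 itself was reduced less in H358, with a difference of -0.57 (SE 0.12), and the part of that in these differences was not tested.

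**Figure D3:**
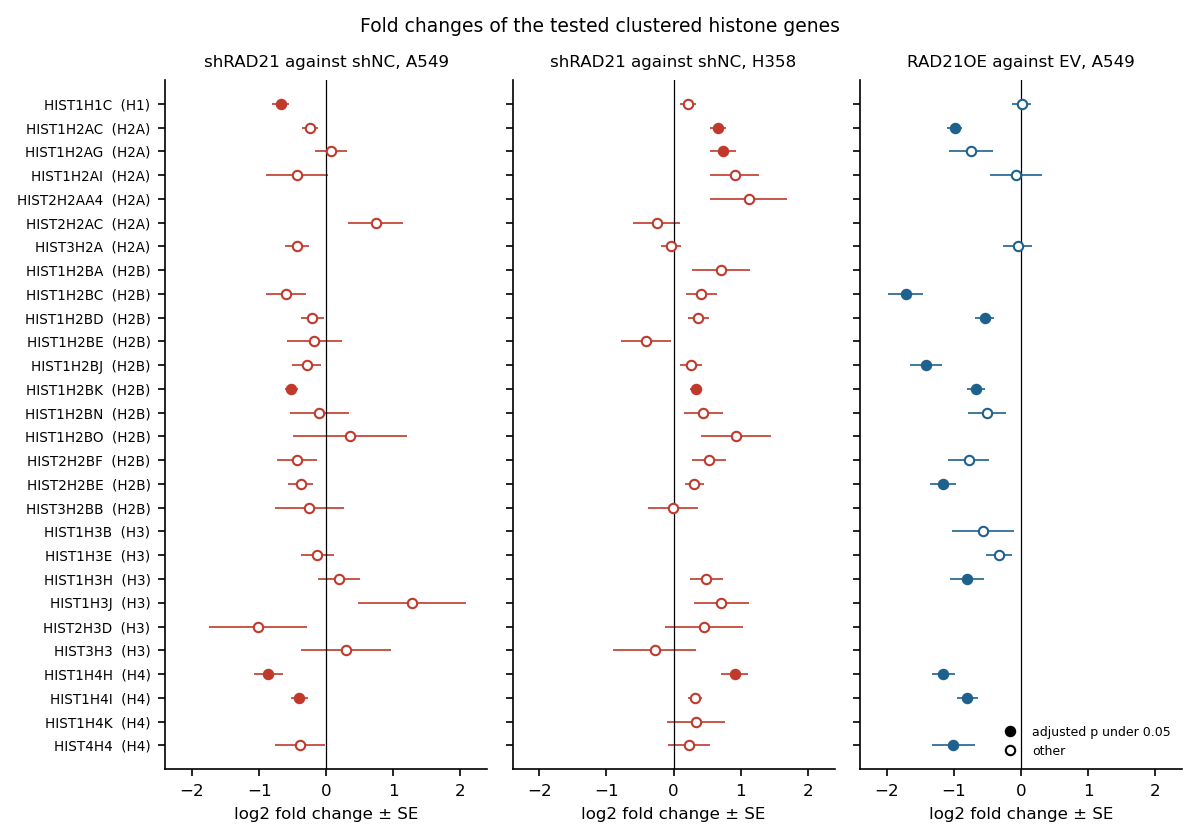
Log2 fold change ± SE of the tested clustered histone genes in the 3 comparisons, ordered by histone type, with filled dots for an adjusted p under 0.05. Members without a count in both groups or with an SE above 1 (2 in the A549 knockdown) are not drawn; in the right panel 10 of 18 dots are filled and lie left of 0, whereas HIST1H1C is at 0.01.

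Overexpression of RAD21 in A549 lowered 10 of the 18 clustered histone genes tested and raised none. The genes that fell were 1 of 4 tested H2A genes (HIST1H2AC), 5 of the 7 tested H2B genes, 1 of 3 H3 genes (HIST1H3H) and all 3 tested H4 genes, to between 30.4% and 68.6% of EV. The 10 of 18 are 55.6%, while 27.8% of all 15462 genes tested were called, 13.7% lower and 14.1% higher. The median log2 fold change of the 18 was -0.76, against -0.01 for all genes. In edgeR 12 of the 18 had an unadjusted p under 0.05, and DESeq2 and limma-voom also called 0 members higher. When only genes reaching 10 CPM in 3 libraries were kept, which few members do, 2 members were lower. Without RAD21OE replicate 3 there were 11. Over all genes 1563 of 9901 were lower with that filter and 2688 of 15909 without that replicate, against 2120 of 15462.

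HIST1H2AC had 14.4, 13.7 and 13.6 CPM in RAD21OE against 28.7, 28.3 and 25.7 CPM in EV. The groups were far apart and the mean was at 50.4% of EV, with a log2 fold change of -0.99 (SE 0.11, edgeR adjusted p = 7.72e-05). Its divergent neighbour HIST1H2BC, an H2B gene whose promoter window overlaps the one printed, had 0.987, 1.35 and 0.944 CPM in RAD21OE against 3.38, 3.33 and 4.10 CPM in EV. It had the lowest log2 fold change of the 18, -1.72 (SE 0.26, edgeR adjusted p = 0.000478). A second divergent pair, HIST1H2BJ and HIST1H2AG, was less alike in its calls. HIST1H2BJ had 1.69, 1.12 and 1.89 CPM in RAD21OE against 4.19, 4.24 and 4.18 CPM in EV, at -1.41 (SE 0.24, edgeR adjusted p = 0.000973). HIST1H2AG averaged 1.43 ± 0.670 CPM in RAD21OE and 2.4 ± 0.172 CPM in EV (SD, n = 3 each), at -0.74 (edgeR adjusted p = 0.11).

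HIST2H2BE, the main H2B gene of the HIST2 cluster, had 2.75, 3.22 and 4.14 CPM in RAD21OE against 7.93, 6.66 and 7.99 CPM in EV. The groups did not overlap, and the log2 fold change was -1.16 (SE 0.19, edgeR adjusted p = 0.000838). HIST1H4H had 3.6, 2.77 and 3.12 CPM in RAD21OE against 7.13, 7.19 and 6.89 CPM in EV, also at -1.16 (SE 0.17, edgeR adjusted p = 0.000491). HIST1H4I had 6.56, 5.91 and 6.54 CPM in RAD21OE against 11.9, 9.15 and 12.1 CPM in EV, at -0.80 (SE 0.16, edgeR adjusted p = 0.00248). In none of these genes did the groups overlap. HIST4H4, the lone member of its cluster, had 1.20, 0.598 and 1.53 CPM in RAD21OE against 2.20, 2.57 and 1.98 CPM in EV, at -1.01 (SE 0.32, edgeR adjusted p = 0.034).

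HIST1H2BK was called lower too, averaging 19.4 ± 3.07 CPM in RAD21OE and 30.9 ± 3.79 CPM in EV (SD, n = 3 each), at -0.67 (edgeR adjusted p = 0.00347). HIST1H2BD, another H2B gene of HIST1, averaged 6.38 ± 0.484 CPM in RAD21OE and 9.31 ± 0.226 CPM in EV (SD, n = 3 each), at -0.54 (edgeR adjusted p = 0.0135). HIST1H3H, an H3 gene, averaged 1.67 ± 0.348 CPM in RAD21OE and 2.92 ± 0.224 CPM in EV (SD, n = 3 each), at -0.80 (edgeR adjusted p = 0.0296). These 3 and HIST4H4 were not equally firm. HIST1H2BD was not called without EV replicate 1 or 3 (edgeR adjusted p 0.0529 and 0.0528). HIST1H3H kept its call without RAD21OE replicate 3 but lost it without each of the other 5 libraries (edgeR adjusted p 0.0649 to 0.107), and HIST4H4 was not called without RAD21OE replicate 2 or any EV replicate (0.0614 to 0.13); DESeq2 called neither gene (adjusted p = 0.078 and 0.0633).

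Of the 6 linker histone genes only 1, HIST1H1C, was tested here, and it stood outside this set. HIST1H1C had 14.5, 13.5 and 17.4 CPM in RAD21OE against 15.7, 13.5 and 15.9 CPM in EV. The ranges overlapped, and the log2 fold change was 0.01 (SE 0.14, edgeR adjusted p = 0.957). HIST3H2A was likewise close to its control, with 2.75, 3.07 and 3.20 CPM in RAD21OE against 2.79, 2.80 and 3.74 CPM in EV, at -0.05 (SE 0.22, edgeR adjusted p = 0.88). The H3 genes HIST1H3E and HIST1H3B were at -0.33 and -0.57 and did not pass (edgeR adjusted p = 0.219 and 0.387). Summed by type, H1 mRNA was at 103% of EV, H3 at 77.5%, H2A and H2B at 58.2% each and H4 at 51.3%. The H2A sum was mostly HIST1H2AC, with 13.88 of 20.5 CPM in RAD21OE and 27.55 of 35.2 CPM in EV. The H2A, H2B and H3 sums had no overlap between the groups, nor had H4, which averaged 11.7 ± 0.711 CPM in RAD21OE and 22.8 ± 2.12 CPM in EV (SD, n = 3 each).

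The A549 comparisons, whose controls are separate libraries, can be read member by member. HIST1H4H, HIST1H4I and HIST1H2BK were called lower in both shRAD21 and RAD21OE cells than in their own controls. In shRAD21 these calls were not equally firm. That of HIST1H2BK was lost with offsets for GC content and exon length (-0.22, edgeR adjusted p = 0.161). That of HIST1H4I was lost under 8 alternatives. HIST1H4H lost its call under none of the alternatives that tested it. HIST1H1C was lower in shRAD21 at -0.68 and at 0.01 in RAD21OE, while HIST1H2AC was lower in RAD21OE at -0.99 and, in shRAD21, at -0.24 without a call, or called lower at -0.34 with the offsets. Members with at least 1000 bases after the stem-loop held 32.7% of the summed CPM in RAD21OE and 39.5% in EV, 34.5% in A549 shRAD21 and 33.2% in A549 shNC, and 31.3% in H358 shRAD21 and 28.6% in H358 shNC. Members without a stem-loop in the model, which include HIST1H2BK and HIST1H1C, held 43.2% in RAD21OE and 36.5% in EV.

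Related genes moved in other patterns, and the shares of all genes given above are the background for their counts. Of 12 genes of histone variants and replacement histones, most of which are polyadenylated and made through the cell cycle, 11 were tested. In A549 shRAD21 3 of the 11 were higher and 3 lower, with H2AFV, an H2A variant, at 0.34 (edgeR adjusted p = 0.000419), H1F0, a linker histone of resting cells, at -0.57 (edgeR adjusted p = 0.000233) and H1FX at -0.52 (edgeR adjusted p = 0.0083). In H358 shRAD21 1 was higher, H2AFX, the H2A variant phosphorylated at DNA breaks, at 0.48 (edgeR adjusted p = 0.00411). In RAD21OE 2 were higher and none lower, with H1F0 at 0.46 (edgeR adjusted p = 0.000822) and H2AFX at 0.30 (edgeR adjusted p = 0.0452).

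Of 20 genes for histone gene transcription and 3′ end processing, 1 was higher and 2 lower in A549 shRAD21, none was called in H358 shRAD21, where 2 had an unadjusted p under 0.05, and 7 were higher and none lower in RAD21OE. The higher gene in A549 shRAD21 was YY1, a transcription factor, at 0.28 (edgeR adjusted p = 0.00186). The 2 lower genes were HINFP, the factor that binds H4 promoters, at -0.49 (edgeR adjusted p = 0.0138), and LSM10, a subunit of the histone pre-mRNA processing particle, at -0.36 (edgeR adjusted p = 0.0084). The helicase UPF1, which takes part in histone mRNA decay, was higher in RAD21OE at 0.48 (edgeR adjusted p = 0.00117). SLBP averaged 88.4 ± 5.04 CPM in A549 shRAD21 and 81.6 ± 3.76 CPM in shNC, 171 ± 8.59 CPM in H358 shRAD21 and 150 ± 4.59 CPM in shNC, and 50.2 ± 4.07 CPM in RAD21OE and 56.5 ± 2.58 CPM in EV (SD, n = 3 each). It was called in none of the 3 comparisons. Of 22 histone chaperones, 3 were higher and none lower in A549 shRAD21, 4 and none in H358 shRAD21, and 6 higher and 3 lower in RAD21OE, with ASF1B, which hands H3 and H4 to assembly factors, at 0.40 in A549 shRAD21 and 0.44 in H358 shRAD21 (edgeR adjusted p = 0.0031 and 0.00402).

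Genes of DNA replication and S phase were counted in the same comparisons. In H358 shRAD21, where 4 histone members rose, 18 of 40 replication genes were higher (45.0%, against the 3.78% of all genes) and none lower, with MCM6, a subunit of the replicative helicase, at 0.50 (edgeR adjusted p = 0.000116). In RAD21OE, where 10 members fell, 13 of 40 were higher (32.5%, against 14.1% of all genes) and 2 lower (5.0%, against 13.7%). GINS4, another part of that helicase, was at 0.54 (edgeR adjusted p = 0.0015). In A549 shRAD21 8 were higher (20.0%, against 14.4% of all genes) and 2 lower (5.0%, against 10.9%). RRM2, a subunit of ribonucleotide reductase, was at 0.51 (edgeR adjusted p = 5.56e-05) and the cyclin gene CCNE1 at -0.61 (edgeR adjusted p = 7.49e-05). Of 30 genes of G2 and mitosis, 20 were higher (66.7%, against 14.4% of all genes) and none lower in A549 shRAD21. In H358 shRAD21 2 were higher (6.67%, against 3.78%) and none lower. In RAD21OE 6 were higher (20.0%, against 14.1%) and 1 lower (3.33%, against 13.7%). The part of the cell cycle in the histone values was not tested.

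Between the control cells of the lines, H358 shNC had higher levels of 15 and lower levels of 3 of the 27 tested members than A549 shNC. The 15 are 55.6% and the 3 are 11.1%, while 76% of all genes were called, 39.1% higher and 36.8% lower in H358. This comparison shares its libraries with the knockdown comparisons as their controls. Some members were testable only because 1 line expresses them, so these counts are not support for a difference of the family. The HIST2 sum averaged 29.5 CPM in H358 shNC and 9.1 CPM in A549 shNC, 3.24-fold, and the HIST1 sum averaged 117.7 CPM and 86.8 CPM, 1.36-fold. The 21 genes of RNAs that normally lack a poly(A) tail also differed between these groups. They summed to 4.54, 8.13 and 8.42 CPM in H358 shNC against 1.28, 1.00 and 1.27 CPM in A549 shNC. All 3 of them that were tested were called higher in H358. The part of this in the histone levels was not tested.

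HIST2H2BE had 26.9, 23.4 and 22.1 CPM in H358 shNC against 5.61, 6.15 and 6.09 CPM in A549 shNC. It was the second most abundant member in H358, and its log2 difference was 2.02 (SE 0.16, edgeR adjusted p = 1.61e-09). HIST3H2A averaged 12.2 ± 1.69 CPM in H358 shNC and 5.47 ± 0.511 CPM in A549 shNC (SD, n = 3 each), at 1.16 (edgeR adjusted p = 2.72e-06). HIST1H4I averaged 16.4 ± 1.49 CPM in H358 shNC and 7.40 ± 0.270 CPM in A549 shNC (SD, n = 3 each), at 1.14 (edgeR adjusted p = 5.28e-08). In the other direction HIST1H2AC had 9.86, 9.81 and 9.98 CPM in H358 shNC against 13.9, 13.5 and 13.3 CPM in A549 shNC, at -0.46 (SE 0.12, edgeR adjusted p = 0.00234). HIST1H4H was called lower at -0.50 (edgeR adjusted p = 0.0353), but not without replicate 1 or 2 of A549 shNC or replicate 2 or 3 of H358 shNC (edgeR adjusted p 0.061 to 0.127), nor with DESeq2 or without the filter on low counts. Among the other higher members, HIST1H2BK was at 0.87 (edgeR adjusted p = 1.01e-07), HIST1H2BJ at 1.05 (edgeR adjusted p = 8.88e-05) and HIST1H2BN, an H2B gene that overlaps H2A genes, at 1.65 (edgeR adjusted p = 0.000419). HIST1H1C, at 11.4 ± 0.881 CPM in H358 shNC and 10.9 ± 1.17 CPM in A549 shNC (SD, n = 3 each), was not called (edgeR adjusted p = 0.631).

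For 2 members 1 line had no count, so only a bound can be given, with 3 counts taken as the limit for the whole group, for counting error only. HIST1H3E, an H3 gene, had 0 counts in the 3 H358 shNC libraries and 175 in the 3 of A549 shNC, where it averaged 3.83 CPM, so it was at least 71.1-fold lower in H358. HIST1H2BA, a testis H2B gene, had 35 counts in H358 shNC and 0 in A549 shNC, so it was at least 9.87-fold higher in H358. HIST1H3E also had no count in the H358 shRAD21 libraries.

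HIST1H3E belongs to a run of 14 neighbouring members with almost no counts in H358. The run lies on chromosome 6 from HIST1H3D to HIST1H2BI, at chr6:26196840-26273356 in the coordinates of the counts, over 76.5 kb. In the 6 H358 libraries its 14 members held 1 count together, against 446 in the 6 A549 libraries of the same table, where 8 of them had a count. Most of the 446 came from HIST1H3E, with 165 counts in A549 shRAD21 and 175 in A549 shNC. HIST1H3D and HIST1H2AD, which share 100% and 98.0% of their exon bases with AL031777.3 on the same strand, had 0 counts in all 18 libraries. By library the run had 1, 0 and 0 counts in H358 shRAD21 and 0, 0 and 0 in H358 shNC, against 76, 93 and 48 in A549 shRAD21 and 88, 79 and 62 in A549 shNC. The 6 other annotated genes within it had 0 counts in H358 and 40 in those A549 libraries. On either side of it members had counts in both lines: HIST1H4H, the next member, had 163 counts in H358 shNC and 189 in A549 shNC, and HIST1H4D, the one before, had 6 and 8. The run was picked after the values were seen, so it is a description with no test. The DNA of these cells was not analysed here.

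**Figure D4:**
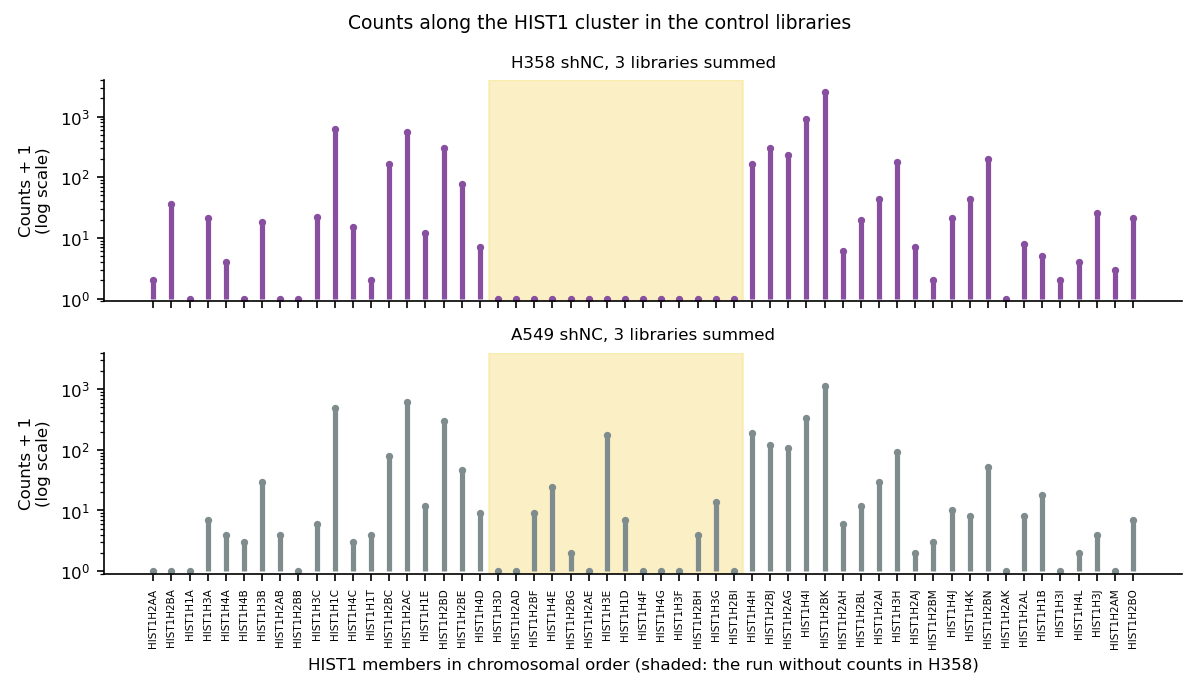
Counts plus 1 on a log scale of the HIST1 members in chromosomal order, summed over the 3 control libraries of H358 (top) and of A549 (bottom). Within the shaded run of 14 members all H358 counts are 0, while HIST1H3E has 175 counts in A549; members on both sides have counts in both lines.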

How the data were processed

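Total RNA was extracted with TRIzol and made into libraries with the VAHTS Universal V6 kit, per the labels' protocols; poly(A) selection and strandedness are not given in the sources used here, so reads of overlapping genes on opposite strands cannot be told apart. The deposited values are raw counts per gene, in 2 tables, which the authors made from the reads; the tools listed in the submitters' processing notes are featureCounts 1.5.0-p3, HISAT2 2.0.5 and fastp, with build hg38. All 58735 genes matched GENCODE release 29 in length, position and strand, and 0 count columns were unmatched. The tables were fitted separately with edgeR 4.0.16 in R 4.3.3: filterByExpr, TMM scaling, the quasi-likelihood F-test and Benjamini-Hochberg adjustment over all genes tested, with 1 mean per group. The knockdown and overexpression were in separate labelled batches and were not tested against each other. CPM use TMM-scaled library sizes. Sums over members have no test. The procedure was tested on simulated data.

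The labels do not say that replicates were separate cultures, and if they were not, the p-values reflect technical spread only. The members and gene lists were chosen with earlier results of these data known. Genes were named by rule: in each comparison up to 6 called members in each direction by smallest adjusted p with a mean of at least 1 CPM in either group, the 3 members of each type highest per kilobase, members of HIST3 and HIST4 at 1 CPM or more, and up to 3 called genes in each direction of every other list. HIST1H2BA, HIST1H4D and the run of neighbouring members, and HIST1H2BD, HIST1H3H and HIST4H4 as calls, were added with their values known. The alternatives tried were DESeq2 1.42.0 (its size factors and its Wald test), limma-voom (limma 3.58.1), other filters, a replicate block, offsets for GC content and exon length, fits of only the groups compared, and leaving out each library.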

Additional observations from a re-analysis of the deposited data

Results flagged for a closer look

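For 5 of the 27 tested clustered histone genes the effect of the knockdown differed between the lines. The test was a direct edgeR test of the interaction, A549 minus H358 on the log2 scale. The 5 are 18.5%, near the 17.6% of all 18939 genes called in that test. The difference was -1.77 for HIST1H4H, -0.9 for HIST1H2AC, -0.9 for HIST1H1C, -0.87 for HIST1H2BK and -0.72 for HIST1H4I. RAD21 was reduced more in A549, with a difference of -0.57 in the same test. The part of that unequal reduction in the histone differences was not tested.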

How the results depend on the processing

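Over the 86 values of single genes and their alternatives, 1104 kept direction and side of the threshold, 50 lost the call, 26 gained it and 28 changed sign, all of the last in genes not called; the cause was not tested. In the H358 knockdown 7 members were higher when only those groups were fitted, and leaving out 1 library gave 2 to 3. Without a filter the median log2 fold change of the tested members was 0.16 in the H358 knockdown, -0.47 with overexpression and 0.45 between the controls, where 6 members were lower; more low members were then tested. With only genes at 10 CPM or more in 3 libraries, 2 members were lower with overexpression, and 4 were higher and 1 lower between the controls (median 1.07). GC and length offsets gave a median of 0.57 between the controls, and leaving out 1 library 0.78 to 1.01. Members whose difference between the lines was lower numbered 5 to 8 when 1 library was left out. With library totals alone the mean summed CPM was 72.0 in A549 shRAD21 and 96.3 in A549 shNC, and 228.9 in H358 shRAD21 and 176.2 in H358 shNC. Without near-identical members it was 61.5 and 77.0, 143.9 and 113.5, and 70.8 in RAD21OE and 111.8 in EV. Signs turned for HIST3H2BB in the H358 knockdown with limma-voom (0.03), and for HIST1H1C with overexpression (-0.03 with the 10 CPM filter, -0.02 with offsets) and between the controls (-0.19 with offsets). Leaving out 1 library gave, in the A549 knockdown, HIST1H2AG -0.11 to 0.28, HIST1H2BN -1.05 to 0.27, HIST1H3E -0.24 to 0.03, HIST1H3H -0.16 to 0.58 and HIST3H2BB -0.69 to 0.21. In the H358 knockdown it gave HIST2H2AC -0.52 to 0.04, HIST3H2A -0.15 to 0.03, HIST3H2BB -0.17 to 0.27 and HIST4H4 -0.08 to 0.42, and with overexpression HIST1H1C -0.1 to 0.09 and HIST3H2A -0.12 to 0.1. For the difference between the lines it gave HIST1H3H -0.64 to 0.1 and HIST3H2BB -0.67 to 0.23, and between the controls HIST1H1C -0.01 to 0.15. Over all genes, fitting only the H358 groups gave 2186 higher and 2287 lower, against 716 and 875, and leaving out A549 shRAD21 replicate 3 gave 4537 and 3893 in the A549 knockdown, against 2721 and 2059. Deviations from the group means correlated at -0.438 to 0.258 between same-numbered libraries, over all pairs of groups fitted together. For replicates 1, 2 and 3 they correlated at -0.122, -0.099 and -0.259 in the A549 knockdown. The values were 0.258, -0.002 and 0.161 in the H358 knockdown and -0.049, 0.232 and 0.124 with overexpression. Whether the numbers pair the libraries cannot be settled from these values. With the replicate block the members called were 4 lower in the A549 knockdown, 4 higher in the H358 knockdown, 10 lower with overexpression, 5 lower for the difference, and 15 higher and 3 lower between the controls, with medians of -0.29, 0.37, -0.79, -0.66 and 0.79. Depth limits what can be said: 43 members had too few counts for a test.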
